A study of Oncorhynchus mykiss with 12 samples.

Results

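Hox genes were read out of an RNA-Seq table of rainbow trout (Oncorhynchus mykiss) dorsal skin, in which 105 of 42290 gene rows met the rule used here. A row was taken where its symbol began with hox, a cluster letter from A to D and a number, or where its description began with the words homeobox protein Hox. The symbol picked 104 rows and the description 81, and the 1 row found by description alone carries the symbol NANOG (gene 110535236) and belongs to no cluster. The study set yellow mutant trout against wild-type trout, both described as the F1 generation of a wild-type male and a yellow mutant female, with 3 libraries per genotype for mRNA and 3 per genotype for small RNA, 12 samples in all. Neither genotype carries a transgene or a treatment in the labels, the age and sex of the fish are not given, and nothing states whether a library is 1 fish or several, so the p-values measure the spread between these libraries, which may be technical.

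Hox genes encode homeodomain transcription factors and sit side by side in clusters. Within a cluster a gene is known by its paralog number, and in vertebrate embryos low numbers are active towards the head and high numbers towards the tail, an order known as collinearity. In mammals, dermal fibroblasts keep a position-specific set of active Hox genes into adult life. Extra genome duplications in teleosts and again in salmonids left trout with more than 1 copy of each cluster. Several rows therefore share 1 symbol and are told apart here by their gene number.

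Levels are given in FPKM, fragments per kilobase of transcript scaled to a fixed total of fragments per library, which allows genes to be set beside each other per length. Column sums lay between 396278 and 428561 FPKM. The absolute depth is not known from FPKM, but the steps between low values put the depth of the yellow mutant libraries at 1.01, 0.582 and 0.81 times that of wild-type library 1, against 1, 0.942 and 0.902 for the wild-type libraries. The labelled tissue was checked with defining markers. krt5, a keratin of basal keratinocytes, had means of 1298 FPKM in yellow mutant and 987 FPKM in wild-type skin. col1a1b, a fibrillar collagen chain, had means of 6695 and 7809 FPKM in yellow mutant and wild-type skin. pvalb1, a calcium buffer of fast muscle, had means of 803 and 795 FPKM in yellow mutant and wild-type skin, so the libraries also held RNA of skeletal muscle. In tissue libraries of this kind fewer cells of a type and less RNA per cell cannot be told apart.

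Cluster A had 23 rows, cluster B 29, cluster C 38 and cluster D 14. In all, 10 Hox rows were listed at 0 in every library (6 of cluster B and 4 of cluster C) and 36 rows had a mean of at least 1 FPKM over the 6 libraries. The summed level of all Hox rows was 121.8, 150.5 and 141.3 FPKM in yellow mutant skin, against 139, 125 and 143 FPKM in wild-type skin. The genotypes overlapped, with means of 138 ± 14.7 FPKM in yellow mutant and 135 ± 9.67 FPKM in wild-type skin (SD, n = 3 each).

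Cluster B gave 44.6% of the summed Hox level, cluster C 23.5%, cluster A 17.6% and cluster D 14.3%. By paralog number, the Hox9 genes alone gave 36.7% of the sum from 11 rows, and all 11 had enough signal to be tested. The end members of the clusters were nearly silent. The 7 rows of paralog 1 gave 0.357% of the sum and the 10 rows of paralog 13 gave 0.592%, and no row of either number had a mean above 0.39 FPKM.

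**Figure D1:**
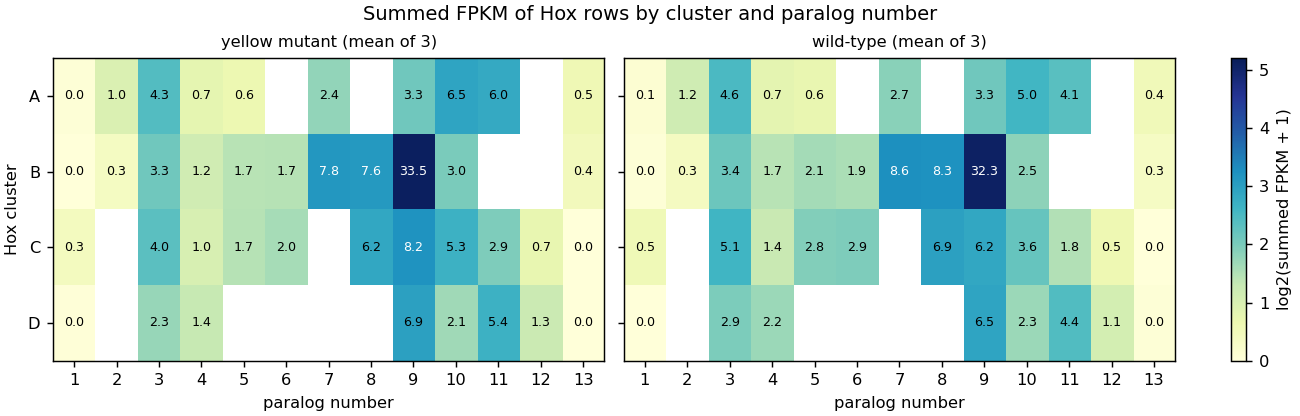
Summed FPKM of the Hox rows (colour on a log2 scale, numbers in FPKM) for each cluster (vertical axis) and paralog number (horizontal axis), as the mean of 3 yellow mutant libraries on the left and of 3 wild-type libraries on the right; white cells have no row analysed here. Both genotypes peak at paralog 9 of cluster B, with 33.5 FPKM in yellow mutant and 32.3 FPKM in wild-type skin, and both are near 0 at paralogs 1 and 13.

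The level at paralog 9 came mostly from 2 copies of hoxb9a, a trunk Hox gene, which were the 2 Hox rows with a mean of at least 5 FPKM. hoxb9a 110538096 had 18.6, 18.6 and 17.6 FPKM in the yellow mutant libraries, against 18.0, 18.3 and 16.5 FPKM in the wild-type libraries. hoxb9a 110486170 had 14.9, 16.2 and 14.5 FPKM in the yellow mutant libraries, against 15.3, 13.05 and 15.8 FPKM in the wild-type libraries. Both genotypes overlapped in both copies, and the first copy was higher than the second in all 6 libraries. No other Hox row exceeded 6.94 FPKM in any library, so neither copy's range met that of another Hox gene. The pair made up 22.6% to 27.5% of the summed Hox level of a library.

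Below hoxb9a the order of levels was close. hoxd9a 110520131 had a mean of 4.84 FPKM, hoxc3a 110491998 4.55, hoxb7a 110538093 4.34, hoxc9a 118939536 4.33, hoxd11a 110501928 4.31 and hoxb8a 110538095 4.07 FPKM, and the ranges of these neighbours overlapped over the 6 libraries. Cluster B supplied the trunk paralogs 5 to 8 with 14.5% of the summed Hox level and cluster C with 8.25%, while no row of those numbers in cluster D was analysed here. In the paralogs 10 to 13, whose genes act in the tail region and fins of fish, cluster A gave 8.26%, cluster D 6.10%, cluster C 5.45% and cluster B 2.25% of the sum.

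Copies of 1 gene were often unequal. By the order of protein-coding genes in RefSeq (assembly USDA_OmykA_1.1, used for names and neighbours only), the clustered rows fell into 13 groups of neighbours, where more than 5 non-Hox genes in a row ended a group; all 105 rows matched that table. The groups are numbered here by summed level within a cluster letter. The 5 rows of group B-4 (hoxb1b, HOXB3, hoxb5b, hoxb6b and HOXB8) were listed at 0 in all 6 libraries, and group B-3 gave 0.191% of the summed Hox level. Groups B-1 and B-2 gave 24.4% and 20.0%, so 2 of the 4 B groups carried nearly all of cluster B.

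In cluster D the D-1 copy had the higher mean for hoxd3a, hoxd4a, hoxd10a, hoxd11a and hoxd12a, and the D-2 copy for hoxd9a alone. hoxd11a averaged 4.31 FPKM in its D-1 copy and 0.587 FPKM in its D-2 copy, and the D-1 copy of hoxd10a averaged 1.93 FPKM against 0.268 FPKM for the D-2 copy. For hoxd9a the order was the other way, with 4.84 FPKM in D-2 and 1.86 FPKM in D-1. For hoxd9a, hoxd10a and hoxd11a the order of the copies was the same in all 6 libraries, and for hoxd3a, hoxd4a and hoxd12a it held in 5, 3 and 5 of 6. How reads shared by near-identical copies were assigned is not given in the sources used here, so the split between copies is uncertain.

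Whether the yellow mutation goes with a different Hox state was asked with limma on log2(FPKM + 1), fitted on the 27268 genes with at least 0.5 FPKM in at least 3 of the 6 libraries. Of the 105 Hox rows, 59 entered the test (12 of cluster A, 16 of B, 21 of C and 10 of D) and 46 did not. No Hox gene passed a Benjamini-Hochberg adjusted p of 0.05, against 9 of all genes tested (0.0330%), all higher in the yellow mutant. No Hox gene had an unadjusted limma p under 0.05 either, where 930 of all genes tested (3.41%) had one and were higher in the yellow mutant and 707 (2.59%) had one and were lower. The smallest adjusted p of a Hox gene was 0.868, and the fitted log2 fold changes, yellow mutant over wild-type, lay between -0.33 and 0.54. In the authors' deposited table the lowest false discovery rate of a Hox row was 0.955, where 138 of all rows had one below 0.05.

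The genotypes did not overlap in 2 of the 59 tested Hox genes, against 11.0% of all genes tested. One was hoxa2a 110496566, whose counterpart in mouse patterns the second pharyngeal arch, with 0.939, 0.661 and 0.760 FPKM in yellow mutant skin, against 0.949, 1.14 and 1.22 FPKM in wild-type skin. The highest mutant library lay just under the lowest wild-type library, and the fitted log2 fold change was -0.24 ± 0.13 (SE; limma adjusted p = 0.885). The other was hoxb10a 110486173, a paralog 10 gene that fish have kept, with 1.08, 1.38 and 1.06 FPKM in yellow mutant skin, against 0.935, 0.964 and 0.858 FPKM in wild-type skin. Its log2 fold change was 0.18 ± 0.13 (SE; limma adjusted p = 0.914).

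The other tested Hox genes with the smallest p in each direction overlapped between the genotypes. hoxb4a 110486168, a paralog 4 gene, had 0.595, 0.449 and 0.258 FPKM in yellow mutant skin, against 0.706, 0.582 and 1.04 FPKM in wild-type skin. Its log2 fold change of -0.31 ± 0.16 had the smallest p among the Hox genes (SE; limma adjusted p = 0.868). hoxc3a 110491998, a paralog 3 gene, had 4.68, 4.13 and 3.14 FPKM in yellow mutant skin, against 4.57, 5.82 and 4.96 FPKM in wild-type skin. Here 1 mutant library reached the wild-type range, and the log2 fold change was -0.30 ± 0.16 (SE; limma adjusted p = 0.875).

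In the other direction, hoxc9 110532669, a copy of a trunk gene, had 1.19, 1.999 and 1.65 FPKM in yellow mutant skin, against 0.788, 1.17 and 1.504 FPKM in wild-type skin. hoxc10a 110491995, a gene of the posterior trunk, had 0.887, 1.997 and 1.79 FPKM in yellow mutant skin, against 1.121, 1.25 and 0.790 FPKM in wild-type skin. The first mutant library lay inside the wild-type range for both genes, and the log2 fold changes were 0.28 ± 0.18 and 0.29 ± 0.20 (SE; limma adjusted p = 0.899 and 0.908). With depth as a covariate they were 0.10 and 0.09. Without yellow mutant library 2 they were 0.18 and 0.16 and without yellow mutant library 1 0.40 and 0.50; hoxc9 was at 0.15 without wild-type library 1. For the abundant hoxb9a pair the fit was tighter around 0, with 95% intervals of -0.26 to 0.37 for 110538096 and -0.29 to 0.38 for 110486170.

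The signs of these differences followed paralog number. The fitted scale, log2(FPKM + 1), makes the change of low genes look smaller. The ratio of FPKM means, yellow mutant over wild-type, was 2.14 for hoxc11a 110491994, fitted at 0.39. For hoxb4a 110486168, fitted at -0.31, it was 0.56, and the genotypes overlapped in both genes. All 13 tested rows of paralogs 1 to 4 had a fitted value lower in the yellow mutant, as had 18 of 19 rows of paralogs 5 to 8, against 47.0% of all genes tested. Among the 13, hoxb3a 110538088 and hoxa3a 110496565 were barely lower, at -5.6e-05 and -0.0065. Their FPKM means were slightly higher in the yellow mutant. No row of paralog 1 or of paralog 13 entered the test. Higher in the yellow mutant were 8 of 11 rows of paralog 9 and 15 of 16 rows of paralogs 10 to 13, against 53.0% of all genes tested. The median log2 fold changes were -0.18, -0.14, 0.05 and 0.20 over the 4 classes, against 0.01 over all genes tested and -0.03 over all tested Hox genes. None of these rows passed the test, and neighbouring Hox genes in the same libraries are not independent of each other. One-sided signs were not limited to Hox genes. In the marker lists read below, all 19 tested endothelial rows were lower in the yellow mutant, and 30 of 33 keratinocyte rows were higher. In the Polycomb list the signs were more even, with 36 of 68 tested rows higher.

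The Hox counts moved with single libraries. Without wild-type library 2, 9 of 16 rows of paralogs 10 to 13 and 5 of 10 rows of paralog 9 were higher in the yellow mutant, and the median over paralogs 10 to 13 was 0.01. Without yellow mutant library 3 the count for paralogs 10 to 13 was 9 of 14, and without yellow mutant library 2 it was 10 of 14. With yellow mutant library 1 left out, the median over paralogs 10 to 13 was 0.50. In that fit 8 of 59 Hox genes had an unadjusted limma p under 0.05, with none past the adjusted threshold. Over all genes 2277 of 26849 had an unadjusted limma p under 0.05 there, against 1637 of 27268 with every library kept. The count for paralogs 5 to 8 was 13 of 19 lower without yellow mutant library 3 and also without wild-type library 3. For paralogs 1 to 4 it was 10 of 12 lower without yellow mutant library 3 and 11 of 13 without wild-type library 2. With any other library left out it was 12 of 12 or 12 of 13 lower.

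**Figure D2:**
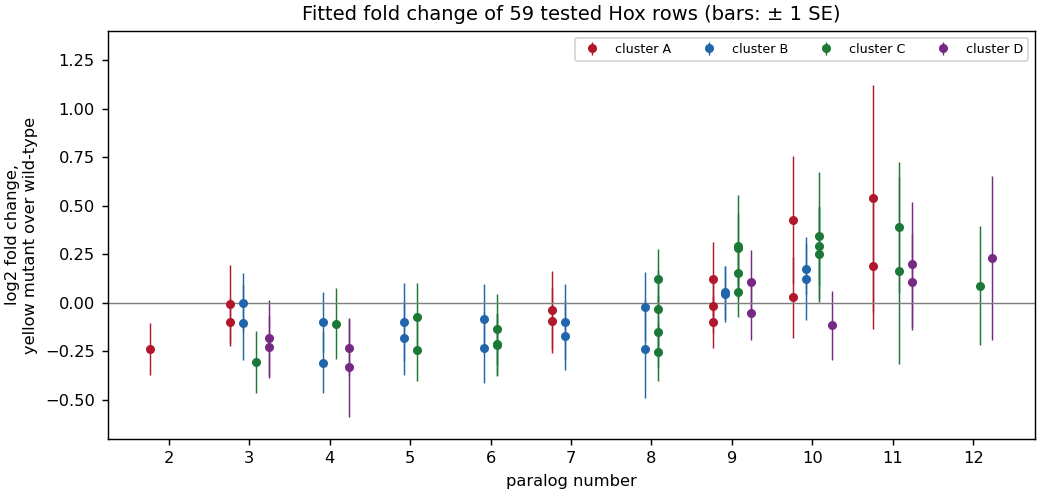
Fitted log2 fold change, yellow mutant over wild-type (vertical axis), of the 59 tested Hox rows by paralog number (horizontal axis), coloured by cluster, with bars of 1 SE. Rows of paralogs 2 to 8 sit mostly below 0 and rows of paralogs 9 to 12 mostly above it, while the largest value, 0.54, has an SE of 0.58.

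The summed levels show how wide the spread behind these signs was. The rows of paralogs 1 to 4 summed to 20.2, 21.6 and 18.1 FPKM in yellow mutant skin, against 22.1, 24.8 and 25.9 FPKM in wild-type skin. The rows of paralogs 5 to 8 summed to 37.8, 32.1 and 25.4 FPKM in yellow mutant skin, against 32.6, 37.3 and 40.2 FPKM in wild-type skin. The genotypes overlapped in the second of these sums and did not in the first, where the highest mutant and the lowest wild-type library were 21.6 and 22.1 FPKM. Paralog 9 was the steadiest class, with 47.6, 56.1 and 51.9 FPKM in yellow mutant skin, against 48.3, 46.2 and 50.6 FPKM in wild-type skin.

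The paralogs 10 to 13 differed most between libraries of 1 genotype. Their rows summed to 16.2, 40.7 and 45.8 FPKM in yellow mutant skin, against 35.9, 16.2 and 26.2 FPKM in wild-type skin. Yellow mutant library 1 and wild-type library 2 were therefore the lowest of their genotype and nearly equal to each other, and the genotypes overlapped fully, with means of 34.2 ± 15.9 and 26.1 ± 9.82 FPKM in yellow mutant and wild-type skin (SD, n = 3 each). Relative to paralog 9 in the same library, the sum over paralogs 10 to 13 was 0.339, 0.725 and 0.884 in yellow mutant skin, against 0.743, 0.352 and 0.518 in wild-type skin, so the same libraries were lowest.

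**Figure D3:**
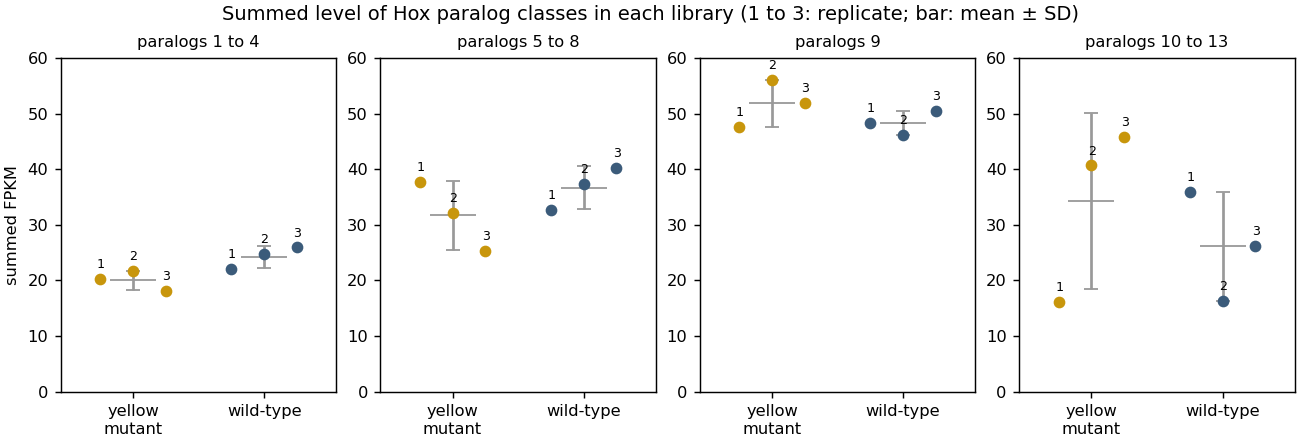
Summed FPKM of the Hox rows (vertical axis, from 0) in each library of yellow mutant and wild-type skin (points, numbered by replicate) for 4 classes of paralog number, with the mean and SD in grey. Paralog 9 stays between 46.2 and 56.1 FPKM, while paralogs 10 to 13 range from 16.2 to 45.8 FPKM, with yellow mutant library 1 and wild-type library 2 at the bottom.

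The contrast grew from paralog 10 to paralog 12. Paralog 11 summed to 5.31, 19.4 and 18.2 FPKM in yellow mutant skin, against 15.8, 4.43 and 10.7 FPKM in wild-type skin. Paralog 12 summed to 0.142, 2.88 and 3.04 FPKM in yellow mutant skin, against 2.93, 0.163 and 1.88 FPKM in wild-type skin. The highest library stood 2.27-fold above the lowest at paralog 10, 4.39-fold at paralog 11 and 21.4-fold at paralog 12. At paralog 13, whose sums stayed at or below 1.25 FPKM, it was 2.87-fold. Low sums also varied in the anterior paralogs, 5.39-fold at paralog 1 with a lowest sum of 0.163 FPKM, and 2.38-fold at paralog 5. The ratio at paralog 12 has a lowest sum of 0.142 FPKM as its base, a level that rests on few fragments. The hoxb9a pair, just before the paralog 10 genes of cluster B, differed 1.11-fold between its highest and lowest library. In the other clusters the paralog 9 sum differed 1.39-fold (A), 2.08-fold (C) and 1.37-fold (D). The sum of paralogs 10 to 13 differed 3.13-fold in cluster A, 1.85-fold in B, 4.20-fold in C and 2.52-fold in D.

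Several clusters took part. hoxa11a 110487957, which in zebrafish is active in developing fins, had 1.21, 4.87 and 5.12 FPKM in yellow mutant skin, against 4.53, 0.517 and 2.08 FPKM in wild-type skin. hoxc11a 110532674 had 0.198, 1.58 and 2.62 FPKM in yellow mutant skin, against 1.86, 0.182 and 1.33 FPKM in wild-type skin. hoxd12a 110501930 had 0.092, 1.41 and 1.59 FPKM in yellow mutant skin, against 1.36, 0 (listed at 0) and 0.784 FPKM in wild-type skin. These 3 genes, chosen after their values were seen, have the same pair of low libraries although they lie in different clusters.

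Among the 16 rows of paralogs 10 to 13 with a mean of at least 0.5 FPKM, yellow mutant library 1 was among the 2 lowest in 15 and wild-type library 2 in 11, and in 11 rows the 2 lowest were exactly these libraries. In paralogs 1 to 4 this held for 1 of 13 rows, in paralogs 5 to 8 for 2 of 19 and in paralog 9 for 3 of 11. The pair of libraries was picked by the sums of paralogs 10 to 13, so these counts describe the pattern and do not test it. Neighbouring rows and copies are not independent, and the share of such rows over all genes tested was not read. The coefficient of variation over the 6 libraries had a median of 49.4% in paralogs 10 to 13, 15.6% in paralog 9, 29.7% in paralogs 5 to 8 and 26.5% in paralogs 1 to 4. Over the 18153 tested genes with a mean between 0.5 and 5 FPKM the median was 22.7% and the upper quartile 33.9%, and 12 of the 16 rows of paralogs 10 to 13 exceeded that quartile. The other 19 rows of these numbers were too low to be tested.

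**Figure D4:**
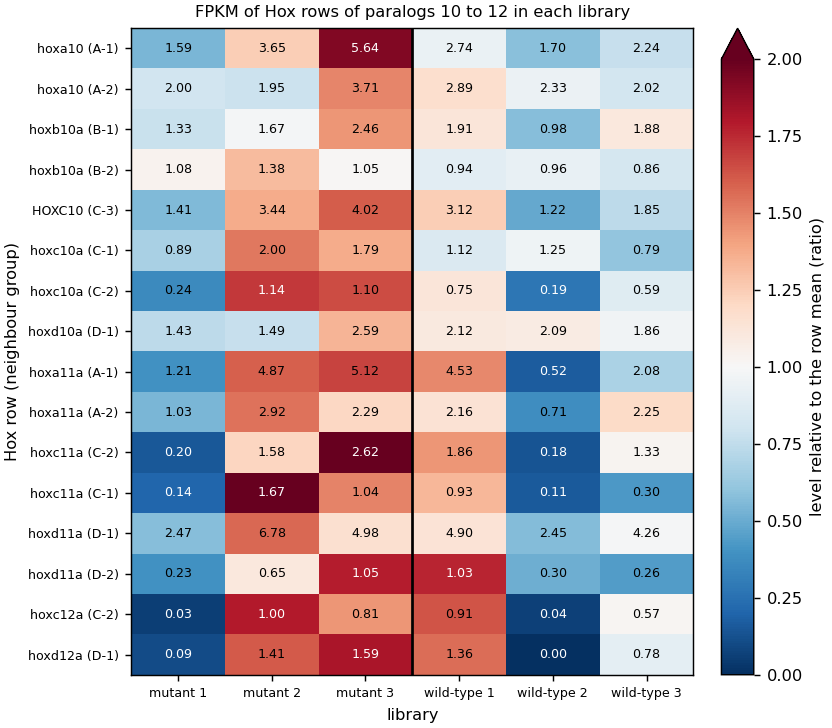
FPKM of the 16 Hox rows of paralogs 10 to 12 with a mean of at least 0.5 FPKM (vertical axis, with the neighbour group) in the 3 yellow mutant and 3 wild-type libraries (horizontal axis); colour gives the level relative to the row mean, with ratios above 2 in the darkest red. The first yellow mutant and the second wild-type column are blue in most rows, most deeply in the 2 rows of paralog 12.

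Other measures moved in part with this pattern. The scale and bone forming cell markers (26 rows, 1 listed at 0) summed to 2041, 3502 and 3894 FPKM in yellow mutant skin, against 2915, 2242 and 1618 FPKM in wild-type skin, so the libraries low for paralogs 10 to 13 were low here too, but wild-type library 3 was lower still. A large part of each of these sums was 1 row, COL10A1 110529515. It had 1053, 2202 and 2321 FPKM in yellow mutant skin, against 1743, 1423 and 969 FPKM in wild-type skin. The skeletal muscle markers (79 rows, 5 listed at 0) summed to 6323, 10676 and 4122 FPKM in yellow mutant skin, against 7671, 2975 and 8322 FPKM in wild-type skin, with yellow mutant library 3, the highest for paralogs 10 to 13, second lowest. The endothelial markers (21 rows, none listed at 0) summed to 141, 88.8 and 91.8 FPKM in yellow mutant skin, against 144, 184 and 118 FPKM in wild-type skin. Yellow mutant library 2, the shallowest at 0.582 times the depth of wild-type library 1, was high for paralogs 10 to 13, and the deepest library, yellow mutant 1, was low. Wild-type library 1, nearly as deep as yellow mutant library 1, was the highest of its genotype for these paralogs. Their sums were 35.9 FPKM in wild-type library 1 and 16.2 FPKM in yellow mutant library 1. With depth as a covariate 10 of 16 rows of paralogs 10 to 13 and 5 of 11 rows of paralog 9 were higher in the yellow mutant. The part of cell makeup, depth or the place on the back from which each piece was cut in these differences was not tested, and the place is not given in the labels.

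The other marker sums are given by genotype, the fibroblast sums also by library, and of these the pigment cell sums alone did not overlap. Pigment cell markers (42 rows, 2 listed at 0) summed to 716 to 909 FPKM in yellow mutant skin, against 554 to 587 FPKM in wild-type skin, with 1 of 32 tested genes past the adjusted limma threshold, higher in the yellow mutant, against 0.0330% of all genes tested. Keratinocyte markers (38 rows, none listed at 0) summed to 1652 to 2223 FPKM in yellow mutant skin, against 1151 to 1692 FPKM in wild-type skin. Fibroblast markers (39 rows, none listed at 0) summed to 40662, 32100 and 35391 FPKM in yellow mutant skin. In wild-type skin they summed to 44003, 46158 and 36699 FPKM. Yellow mutant library 1 and wild-type library 2, low in the class of the highest paralog numbers, were the highest of their genotype here. The same held for the endothelial sums given above, so this was not particular to fibroblast markers. For nerve and Schwann cell markers (51 rows, 10 listed at 0) the sums were 234 to 355 FPKM in yellow mutant skin. They were 297 to 360 FPKM in wild-type skin. No gene of the other marker lists passed the threshold. The part of these sums in the Hox values was not tested.

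No partner or regulator of Hox genes on the lists read here passed the test. TALE homeodomain proteins of the Pbx, Meis and Pknox families bind DNA together with Hox proteins, and 0 of 23 tested rows passed in either direction (median log2 fold change -0.04). pbx2 110515353 was the highest of them, with 13.1, 13.5 and 14.5 FPKM in yellow mutant skin, against 11.2, 12.1 and 14.8 FPKM in wild-type skin. PKNOX1 110495942 had the smallest p, with 7.03, 5.96 and 5.48 FPKM in yellow mutant skin, against 5.199, 5.02 and 3.67 FPKM in wild-type skin. All 3 mutant values exceeded the wild-type values, with a log2 fold change of 0.35 ± 0.16 (SE; limma adjusted p = 0.854).

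Of the genes beside the clusters and the axial regulators upstream of them, 4 of 16 rows could be tested and none passed (median log2 fold change -0.07). CDX1 110534181, of the caudal family that acts on trunk Hox genes, was the highest, with 4.79, 4.10 and 3.43 FPKM in yellow mutant skin, against 4.74, 4.55 and 4.77 FPKM in wild-type skin. Gmnn 110496552, geminin, an inhibitor of replication licensing, had the smallest p, with means of 1.35 ± 0.59 FPKM in yellow mutant and 2.11 ± 0.70 FPKM in wild-type skin (SD, n = 3 each; limma adjusted p = 0.891). 7 of the 16 rows were listed at 0 in every library.

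Polycomb proteins keep Hox genes silent and Trithorax proteins keep them active. In the Polycomb list 0 of 68 tested rows passed (median log2 fold change 0.01). ezh2 110535410, the methyltransferase of Polycomb complex PRC2, was its highest member at 6.37 ± 1.05 FPKM in yellow mutant and 7.25 ± 0.44 FPKM in wild-type skin (SD, n = 3 each).

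In the Trithorax and H3K27 demethylase list 0 of 43 tested rows passed (median log2 fold change 0.04). Dpy30 110491239, a shared subunit of the H3K4 methyltransferase complexes, was its highest member at 13.2 ± 3.75 FPKM in yellow mutant and 11.7 ± 0.99 FPKM in wild-type skin (SD, n = 3 each). The member with the smallest p was WDR59 110526882 (limma adjusted p = 0.762), 1 of 6 rows that the name pattern for wdr5 took in through their names and that are no Trithorax genes. Of these 6 rows, 4 were among the 43 tested and remain in the count and the median. Retinoic acid acts on Hox clusters in embryos, and 0 of 33 tested rows of its synthesis, breakdown, binding and receptor genes passed (median log2 fold change 0.00).

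Among the retinoic acid genes, crabp2a 110520876, a cellular retinoic acid binding protein, had 59.4, 58.8 and 58.4 FPKM in yellow mutant skin, against 62.2, 55.1 and 52.9 FPKM in wild-type skin. ALDH1A3 110506179, an enzyme that makes retinoic acid, had 3.07, 3.46 and 3.28 FPKM in yellow mutant skin, against 1.79, 1.28 and 2.29 FPKM in wild-type skin. The genotypes did not overlap in ALDH1A3, and its log2 fold change of 0.63 ± 0.16 did not pass over all genes tested (SE; limma adjusted p = 0.544).

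Other transcription factors of body position were read as well. Both zic1 rows, a gene of the dorsal trunk in fish, were read in every library, at 8.28, 5.63 and 6.06 FPKM in yellow mutant skin, against 6.29, 8.35 and 8.04 FPKM in wild-type skin for the higher row. Rows named tbx5 or TBX5, a gene of the pectoral fin, stayed at or below 0.152 FPKM in every library. The zic1 and tbx5 rows were chosen after their values were seen, and they do not settle a body position. Other positional genes differed from them: EN1 110527453 and dlx5a 110488010 had means of 3.93 and 6.07 FPKM over the 6 libraries. The means of the zic4 rows ran from 0.0192 to 1.48 FPKM. In the list of positional genes 0 of 47 tested rows passed (median log2 fold change -0.03). TWIST2 110493949, of mesenchyme, was the highest at 32.4 ± 6.33 FPKM in yellow mutant and 32.7 ± 1.58 FPKM in wild-type skin (SD, n = 3 each). Msx1 110493982, a homeobox gene of skin appendages and fins, had the smallest p, with 7.14, 7.89 and 6.82 FPKM in yellow mutant skin, against 4.14, 6.23 and 5.51 FPKM in wild-type skin. The genotypes did not overlap there, and the log2 fold change of 0.41 ± 0.16 did not pass (SE; limma adjusted p = 0.795).

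Vertebrate Hox clusters also hold microRNA genes of the miR-10 and miR-196 families, and those of mammals hold miR-615 as well. miR-10 genes lie close to Hox4 genes and miR-196 genes close to Hox9 genes, and in mouse miR-196 cuts the Hoxb8 transcript. The small RNA table had 3 entries of miR-10 and 3 of miR-196, and no miR-615 entry was analysed here. The 4 entries with a mean of at least 10 RPM (reads scaled to a fixed total per library) are shown as given in the deposited table, 5′ to 3′, with the seed that pairs with targets (bases 2 to 8) in capitals, to show that the x and y entries of a family have different seeds.
miR-10-x: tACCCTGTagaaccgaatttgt
miR-10-y: aCAGATTCgattctaggggagt
miR-196-x: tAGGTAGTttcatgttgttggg
miR-196-y: cCGCAACAagaaactgccttga

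Among the other entries, miR-196-z has the same seed as miR-196-x and was at or below 0.209 RPM in every library. miR-10-x was the third most abundant of 1279 entries. It had 38691, 60640 and 27328 RPM in yellow mutant skin, against 41310, 50489 and 53371 in wild-type skin. The mutant libraries enclosed all wild-type values, and the log2 fold change was -0.27 ± 0.28 (SE; limma adjusted p = 0.906). miR-10-y had 38.0, 34.5 and 38.5 RPM in yellow mutant skin, against 29.1, 42.3 and 39.6 in wild-type skin.

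Of the 519 entries tested none passed an adjusted limma p of 0.05 (0%), while 43 had an unadjusted p under 0.05 (8.29%), and miR-196-y was the 1 entry of these families among them. miR-196-x had 374, 740 and 655 RPM in yellow mutant skin, against 435, 362 and 481 in wild-type skin. Mutant libraries 2 and 3 were above all wild-type libraries and library 1 was below their middle value, with a log2 fold change of 0.42 ± 0.29 (SE; limma adjusted p = 0.794). miR-196-y had 30.3, 51.7 and 76.4 RPM in yellow mutant skin, against 33.1, 23.1 and 25.02 in wild-type skin. Its log2 fold change was 0.86 ± 0.35 (SE; limma adjusted p = 0.584), and the genotypes overlapped in yellow mutant library 1. Without that library the log2 fold changes were 0.72 for miR-196-x and 1.202 for miR-196-y, while miR-196-x was at 0.23 without yellow mutant library 2 and miR-196-y at 0.55 without yellow mutant library 3.

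**Figure D5:**
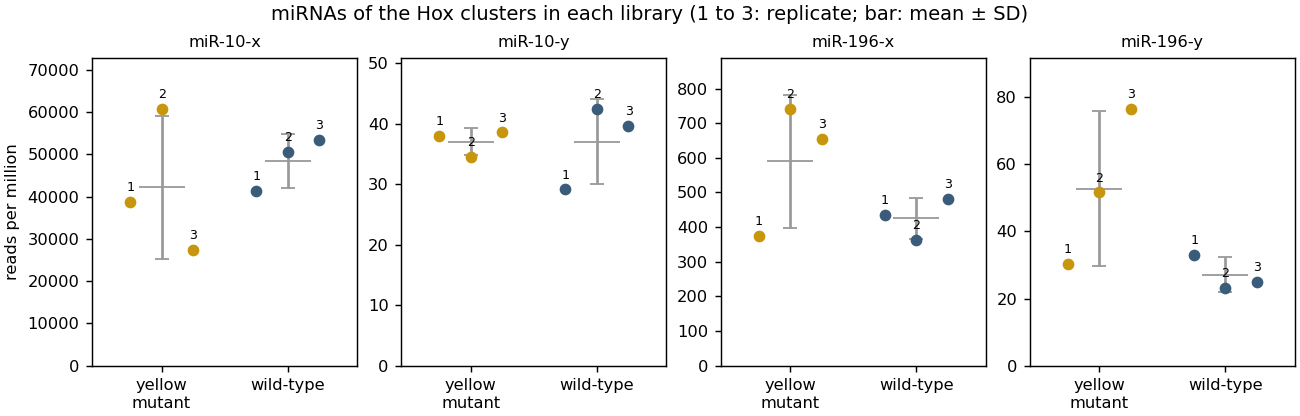
RPM (vertical axes, each from 0 with its own scale) of 4 miRNAs from the Hox clusters in each small RNA library of yellow mutant and wild-type skin (points, numbered by replicate), with the mean and SD in grey. Libraries numbered yellow mutant 1 and wild-type 2 are the lowest of their genotype for miR-196-x, at 374 and 362 RPM.

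The small RNA libraries lowest in miR-196-x and miR-196-y within their genotype carried the same numbers, yellow mutant 1 and wild-type 2, as the mRNA libraries lowest in paralogs 10 to 13. The labels do not say that libraries of 1 number in the 2 assays came from the same fish, so this is given as a description. The x and y entries of 1 family may come from the same gene, so their values may not be independent of each other. In hoxb8a, whose mouse counterpart is the known miR-196 target, the copy 110538095 had 4.78, 3.71 and 3.57 FPKM in yellow mutant skin, against 3.17, 5.08 and 4.11 FPKM in wild-type skin. Its highest libraries were yellow mutant 1 and wild-type 2. These libraries were also the highest of their genotype in hoxb7a 110538093, hoxc3a 110491998 and hoxc8a 110491997, so this was not particular to hoxb8a. Those genes were picked after their values were seen. The hoxb8a copy 110486171 had 5.13, 3.64 and 1.92 FPKM in yellow mutant skin, against 4.24, 4.23 and 3.97 FPKM in wild-type skin, and there the wild-type order differed. No relation between the assays was tested.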

How the data were processed

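Dorsal skin of yellow mutant and wild-type trout was profiled by RNA-Seq and small RNA-Seq, 3 libraries per genotype and assay. The authors deposited FPKM values per gene, with their own log2 fold changes and false discovery rates (p-values adjusted over genes), and small RNA values that are RPM (reads scaled to a fixed library total) by their size, though headed TPM by the authors, with a p-value per entry and 0.01 in place of 0. TopHat2 2.1.1 and Bowtie2 2.2.8 appear in the submitters' processing notes; neither the genome build nor the read counter is given there. The size of 1 read in the small RNA table puts its denominators at 9095319 to 11502081 reads.

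Tests used limma 3.58.1 in R 4.3.3 (trend and robust empirical Bayes, two-sided, no covariate) on log2(FPKM + 1) for genes with at least 0.5 FPKM in at least 3 of 6 libraries, and on log2(RPM + 1) for entries with at least 1 RPM in at least 3. A fold change on this scale understates the change of low genes. Benjamini-Hochberg adjustment ran over all features tested. The fit was tested on simulated data. For mRNA, changes were added there only to genes above the level of most Hox rows. The simulation therefore does not show which changes in lower rows the fit could find. Relative depth was taken from the steps between low FPKM values.

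The Hox members and all gene lists were chosen with earlier results of these data known. Named were Hox rows with a mean of at least 5 FPKM, those past the threshold, the 3 per direction with the smallest p, from every other list the member with the smallest p (or those past the threshold) and the one with the highest mean, and miRNAs of the Hox cluster families with a mean of at least 10 RPM; other genes were named after their values were seen. 1 result that this rule names is not reported here. Alternatives changed the pseudocount, filter, scaling, empirical Bayes options, a replicate block and single libraries; depth as a covariate was added after seeing the data.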

Additional observations from a re-analysis of the deposited data

How the results depend on the processing

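No Hox gene passed the adjusted limma threshold under any of the 13 alternatives run (another pseudocount, no filter, a filter at 5 FPKM, median-of-ratios scaling, no trend or robust option, the replicate block, depth as a covariate, and each library left out in turn). The count of all mRNA genes called, 9, was 0 with the replicate block and 0 with depth as a covariate, an alternative chosen after seeing the data, and lay between 0 and 14 with single libraries left out: 13 without yellow mutant replicate 1, 14 without replicate 2 and 0 without replicate 3, against 0, 1 and 0 without wild-type replicates 1, 2 and 3. The cause was not tested. The miRNA count, 0, was 0 with the replicate block and between 0 and 10 with libraries left out. The labels do not say whether replicate numbers pair the samples. Between libraries of equal number, deviations from the group means correlated at 0.116, -0.213 and 0.158 for mRNA and at 0.0883, -0.121 and -0.0585 for miRNA. Not every library correlated best with its own number, and such correlations cannot settle whether the samples were paired. Among named values, Dpy30 turned to -0.10 with depth as a covariate. With libraries left out, log2 fold changes ranged from -0.033 to 0.098 for hoxb9a 110486170, from -0.079 to 0.26 for Dpy30, from -0.17 to 0.090 for TWIST2, from -0.57 to 0.01 for miR-10-x, from -0.14 to 0.12 for miR-10-y and from -0.10 to 0.24 for miR-10-z, changing sign in each. Without a change of sign, they ranged from -0.39 to -0.20 for hoxb4a 110486168, from -0.40 to -0.18 for hoxc3a, from -0.30 to -0.19 for hoxa2a, from 0.15 to 0.40 for hoxc9 110532669, from 0.16 to 0.50 for hoxc10a 110491995, from 0.11 to 0.21 for hoxb10a 110486173, from 0.23 to 0.72 for miR-196-x and from 0.55 to 1.202 for miR-196-y. A pseudocount of 0.1 moved hoxb4a 110486168 to -0.73, hoxa2a to -0.45, hoxc9 to 0.47, hoxc10a to 0.47 and hoxb10a 110486173 to 0.31. A filter at 5 FPKM left 3 Hox genes. A count test on small RNA reads was not run, since 0 is written as 0.01 in that table. The lowest rows rest on few fragments, whose number FPKM does not give.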
